A study of Drosophila melanogaster with 2 samples.

Results

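Small nuclear RNA (snRNA) genes make the short RNAs at the centre of the splicing machinery, and they were examined here for binding of the transcription factor Fer1. The genes were all those of biotype snRNA in the Ensembl release 115 annotation of the fly on chromosomes 2L, 2R, 3L, 3R, 4 and X. There were 32 of them among 18164 annotated genes (transposable elements left out), 71 to 444 bp long, on 2L, 3L, 3R and X. The data were peak lists from chromatin immunoprecipitation followed by sequencing (ChIP-seq) of Fer1 fused to eGFP in whole embryos of mixed sex, 6 to 24 h old, with 2 biological replicates in 1 group. All embryos carried the fusion, a stable transgene with GFP at the C-terminus of Fer1, and a label describes the line as an insertion that targets Fer1. The chromatin was recovered with an antibody against GFP per the sample description, while another label names Fer1 as the antibody target. No label gives the promoter or the extent of the transgene. The group has no counterpart without the fusion among the samples, so no test between conditions or between gene classes was made and counts are descriptions. Whole embryos mix all cell types, so binding in fewer cells and weaker binding per cell cannot be told apart.

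Peaks that passed the authors' reproducibility cutoff numbered 7329 and are called the thresholded list here, with signal values from 110.1 to 4431 and a median of 182.1 in the authors' units. The pooled list, called on both replicates together, held 30000 peaks reaching down to a signal value of 21.8, and each replicate had a list of the same length. The summit is the highest point of a peak. Peak lists give no read totals, so the sequencing depth of the libraries is unknown and signal values were compared only within a list. Positions are on dm6, and distances are negative upstream of a gene start and positive downstream.

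In the major spliceosome, U1 snRNA pairs with the 5′ splice site, U2 pairs with the branch point, and U4, U5 and U6 join as a further particle in which U6 forms part of the catalytic centre. U11, U12, U4atac and U6atac do the same work in the minor spliceosome, U7 guides the 3′ end processing of histone mRNAs, and 7SK RNA holds the elongation factor P-TEFb inactive. U6, U6atac and 7SK are transcribed by RNA polymerase III and the other named snRNAs by RNA polymerase II. Both kinds of promoter carry a proximal sequence element, called PSEA in flies, which binds the complex SNAPc, and the polymerase III kind adds a TATA box.

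Nearly all of the promoters show this shared plan, while snRNA:7SKb held neither the element core nor the TATA pattern given below. Each line below gives the DNA from 75 bp before to 10 bp after the start, on the gene's own strand, with the core of the proximal sequence element in capitals. For 5 RNA families, the gene with a thresholded summit within 100 bp of its start comes first and a relative without one second. Among the 7329 highest peaks of replicate 2 alone, only U1:95Ca and U5:63BC had a summit that close. Whether the sequences have a part in the difference was not tested.
snRNA:U1:95Ca (chr3R:23859621-23859705, minus strand): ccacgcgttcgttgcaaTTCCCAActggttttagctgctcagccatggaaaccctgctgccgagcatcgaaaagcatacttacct
snRNA:U1:95Cb (chr3R:23827795-23827879, plus strand): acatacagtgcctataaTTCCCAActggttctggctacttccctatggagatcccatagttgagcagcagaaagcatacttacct
snRNA:U2:34ABb (chr2L:13215764-13215848, plus strand): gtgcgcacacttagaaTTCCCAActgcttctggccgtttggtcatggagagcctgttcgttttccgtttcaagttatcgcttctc
snRNA:U2:34ABc (chr2L:13244552-13244636, minus strand): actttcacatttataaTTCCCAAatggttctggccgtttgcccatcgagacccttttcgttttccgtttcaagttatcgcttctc
snRNA:U5:63BC (chr3L:3090726-3090810, plus strand): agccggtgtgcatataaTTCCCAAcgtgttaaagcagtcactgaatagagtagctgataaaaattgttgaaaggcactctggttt
snRNA:U5:23D (chr2L:3048626-3048710, plus strand): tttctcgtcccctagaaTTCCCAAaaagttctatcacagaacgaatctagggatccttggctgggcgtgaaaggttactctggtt
snRNA:U6:96Ac (chr3R:24557140-24557224, plus strand): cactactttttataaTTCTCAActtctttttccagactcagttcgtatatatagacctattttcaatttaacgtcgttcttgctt
snRNA:U6:96Aa (chr3R:24556013-24556097, plus strand): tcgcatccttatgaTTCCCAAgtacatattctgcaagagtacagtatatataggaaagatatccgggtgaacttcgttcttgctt
snRNA:7SKa (chr3R:7474987-7475071, minus strand): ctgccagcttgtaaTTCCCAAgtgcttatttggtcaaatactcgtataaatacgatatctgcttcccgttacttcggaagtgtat
snRNA:7SKb (chr3R:23432794-23432878, plus strand): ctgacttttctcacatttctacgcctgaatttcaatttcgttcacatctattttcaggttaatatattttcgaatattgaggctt

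The core of the element was present at nearly all of the genes, with or without a peak. TTCNCAA, read on the gene's strand from 90 to 31 bp before the start, was found at 31 of 32 snRNA genes (96.9%) against 1.96% of protein-coding genes, 2.07% of tRNA genes and 3.35% of snoRNA genes. Its first base lay between -64 and -55 bp, with a median of -58. The middle base was C at 26 genes and T at 5, and snRNA:7SKb was the gene without a match. TATAAA or TATATA within 45 bp before the start was found at 5 snRNA genes (15.6%), namely the U6 genes, snRNA:U6atac and snRNA:7SKa, against 12.9% of protein-coding genes. Both patterns were chosen after the promoters had been read. Of the 8 genes with a thresholded summit within 1 kb, 8 held TTCNCAA in the promoter from 250 bp before to 50 bp after the start (either strand), as did 23 of the 24 others.

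Fer1-eGFP peaks lay near a minority of the snRNA genes, a share close to that of all genes. A thresholded summit lay within 1 kb of the start of 8 of 32 snRNA genes (25%, 95% Clopper-Pearson interval 11.5 to 43.4), against 27.7% of all genes, 31.2% of protein-coding genes, 27.2% of tRNA genes and 27.1% of snoRNA genes. The interval covers counting error over genes only. The 8 genes were snRNA:U1:95Ca, snRNA:U2:34ABb, snRNA:U5:38ABb, snRNA:U5:63BC, snRNA:U6:96Ab, snRNA:U6:96Ac, snRNA:7SKa and snRNA:U11. They shared 9 distinct summits, because snRNA:U6:96Ab and snRNA:U6:96Ac had the same ones. A further 6 genes had only weaker summits in the pooled list within 1 kb, which gave 14 of 32 (43.8%) against 49.7% of all genes, 53.3% of protein-coding genes, 65.2% of tRNA genes and 66.2% of snoRNA genes. Among the 7329 highest peaks of replicate 1 alone, 9 snRNA genes had a summit within 1 kb (28.1%), against 27.6% of all genes, 30.9% of protein-coding genes, 29.3% of tRNA genes and 27.1% of snoRNA genes. Among those of replicate 2 alone the count was 7 (21.9%), against 28.1%, 31.7%, 30.3% and 28.6% in the same order. In 17 genes no summit of the pooled list or of either replicate lay within 1 kb. The last gene, snRNA:U4atac, had a summit in replicate 2 alone, at -937 bp with a signal value of 18.3.

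**Figure D1:**
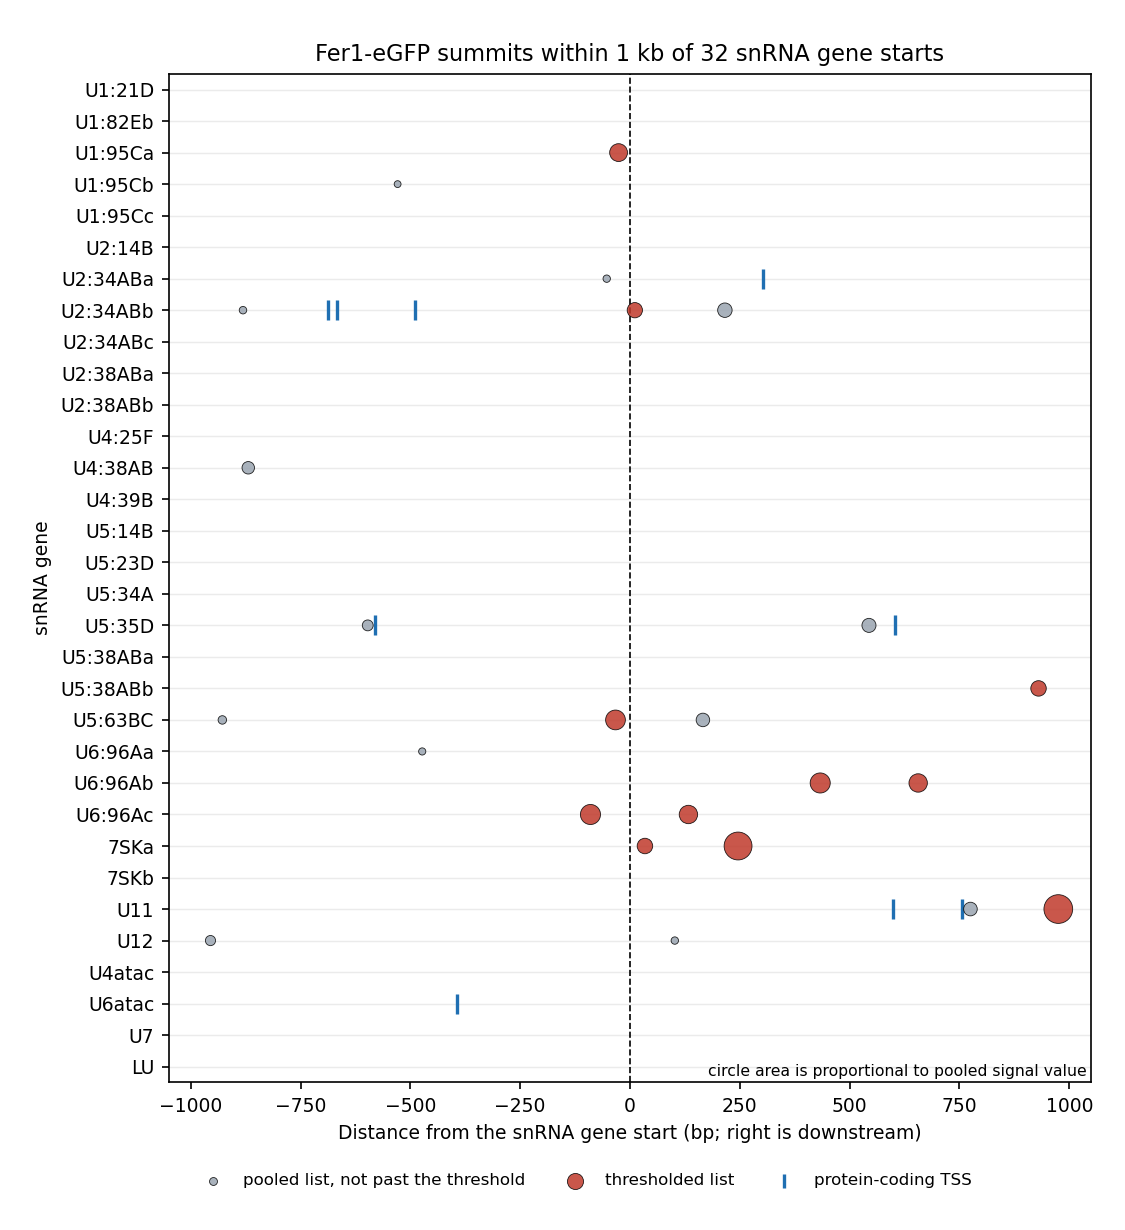
Summits of the pooled list within 1 kb of each of the 32 snRNA gene starts, with distance in bp on the x axis and genes on the y axis. Red circles are in the thresholded list, grey circles are not, blue ticks are protein-coding TSSs, and circle area is proportional to the signal value. Thresholded summits lie within 100 bp of the start at 5 genes, and the rows of 18 genes hold no circle.

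Of the 8 genes with a thresholded summit, 5 had one within 100 bp of the start, but replicate 2 alone gave 2. Within 100 bp of the start, 5 of 32 snRNA genes had a thresholded summit (15.6%, interval 5.28 to 32.8), against 9.32% of all genes, 11.4% of protein-coding genes, 6.55% of tRNA genes and 2.6% of snoRNA genes. Among the 7329 highest peaks of replicate 1 the count was the same 5 (15.6%), against 9.15%, 11.2%, 7.24% and 1.86% in the same order. Among those of replicate 2 it was 2 (6.25%, interval 0.766 to 20.8), U1:95Ca and U5:63BC, against 9.12%, 11.1%, 7.93% and 2.97%. The share within 100 bp was thus above that of all genes in replicate 1 and below it in replicate 2. Within 200 bp the same 15.6% stood against 16.6% of all genes, 20.2% of protein-coding genes, 13.4% of tRNA genes and 3.72% of snoRNA genes. Within 500 bp there were 6 snRNA genes (18.8%), against 22.6%, 26.6%, 21% and 10.8% in the same order, so the order of the classes changed with the window. Among genes with a summit within 1 kb, the median distance was 62 bp for the 8 snRNA genes, 138 bp for protein-coding genes, 201 bp for tRNA genes and 630 bp for snoRNA genes. The snRNA median was 193 bp with the highest peaks of replicate 2 alone and 267.5 bp in the pooled list. The 5 genes were 1 each of the U1, U2, U5, U6 and 7SK families, and 0 of the single-copy minor spliceosome and U7 genes.

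**Figure D2:**
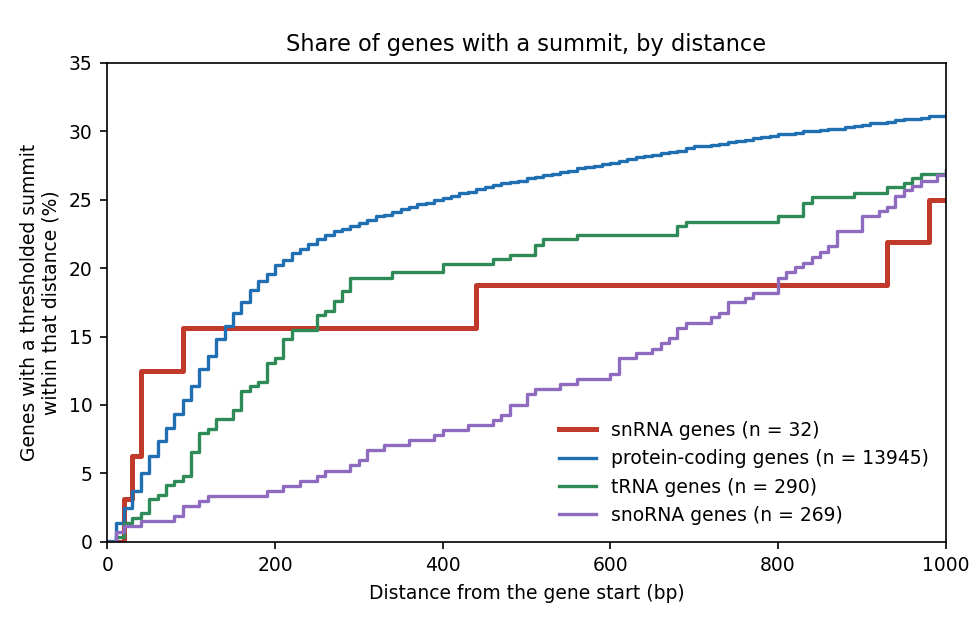
Share of genes (%) with a thresholded summit within the distance from the gene start given on the x axis (bp), for 4 gene classes. The snRNA line reaches 15.6% at 90 bp and ends at 25% at 1 kb, where protein-coding genes reach 31.2%.

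Among summits nearer to an snRNA start than to a coding TSS, the highest lay inside the 7SKa gene, downstream of its start. snRNA:7SKa (FBgn0065099, 3R from 7474553 to 7474996, minus strand) lay under 1 peak of 553 bp that covered the whole gene and held 2 summits. The higher, 246 bp downstream of the start and within the RNA, reached 397.9 in signal, rank 1044 of 7329. It ranked 1280 in replicate 1 (signal 210.8) and 971 in replicate 2 (172.4), at +244 and +248 bp, so both libraries placed it within a few bases. The lower, at +34 bp, had a signal value of 123.1 (rank 6371). In replicate 1 it ranked 3677 (110.4), but in replicate 2 only 16577 (23.5), below the 7329 highest of that library. The nearest coding TSS, that of CG1142, lay 969 bp from the higher summit. The other 7SK gene of the annotation, snRNA:7SKb, lies inside CG4374 and had no summit in any list. Its identity with 7SKa was 46.8%, taken as 1 less the edit distance of a global alignment over the longer length. Their 250 bp upstream gave 45.6%. The identity that unrelated sequences reach by this measure was not computed, so such values do not show likeness.

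The U6 genes stand in a row of identical copies, and the peaks sat at the last one. snRNA:U6:96Aa, snRNA:U6:96Ab and snRNA:U6:96Ac lie on 3R from 24556088 to 24557321, all on the plus strand. Their RNAs are 100% identical, while the 250 bp upstream gave 45.6 to 52.8% by the same measure, again without a baseline. Thresholded summits lay at -90 bp (signal 206.5, rank 3011) and +133 bp (173.4, rank 3964) of U6:96Ac, on either side of the 107 bp gene. In replicate 1 these were at -72 bp (123.1, rank 3075) and +129 bp (100.9, rank 4240), and in replicate 2 at -112 bp (88.0, rank 2993) and +130 bp (64.5, rank 4878). Both libraries thus held both summits among their highest 7329. The same summits lay 433 and 656 bp downstream of the start of U6:96Ab. U6:96Aa had 1 weak pooled summit, at -473 bp in a coding exon of Esyt2 (26.5, rank 26582), and its nearest thresholded summit was 1037 bp away. The coding TSS nearest to the thresholded pair, that of Esyt2, was 8108 bp away.

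snRNA:U5:63BC (FBgn0003938, 3L from 3090801 to 3090923, plus strand) was the U5 gene with a summit at its start. The summit lay at -33 bp, between the element and the start, with a signal value of 199.9 (rank 3175), and the nearest coding TSS, of PAN3, was 8790 bp off. Replicate 1 placed it at -33 bp (124.9, rank 3007) and replicate 2 at -35 bp (75, rank 3904). A second summit just past the gene, at +166 bp, had a pooled signal value of 93.6 and missed the threshold. The replicate values of that second summit were 60.2 (rank 8558) and 25 (rank 15560). Of the other U5 genes, snRNA:U5:38ABb had a thresholded summit at +930 bp, in an intron of the gene sick (122.7, rank 6396). That summit ranked 6386 in replicate 1 (75.9) and 8059 in replicate 2 (44.7), which is outside the highest 7329 of replicate 2.

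snRNA:U1:95Ca (FBgn0004185, 3R from 23859467 to 23859630, minus strand) was the 1 of 5 U1 genes with a thresholded summit. It lay at -26 bp with a signal value of 162.8 (rank 4342), and the nearest coding TSS, of Pli, was 30396 bp off. Replicate 2 had a single summit there, at -26 bp (63.8, rank 4948). Replicate 1 had a pair, at -54 bp (75.1, rank 6475) and +152 bp (99.4, rank 4341), so the libraries differed in which side of the start was higher. snRNA:U1:21D and snRNA:U1:95Cb have the same 164 bases as U1:95Ca in the gene and at most 57.2% identity with it in the 250 bp upstream. U1:21D had no summit in any list, and U1:95Cb had a pooled one at -529 bp (24.1, rank 28316), found in replicate 2 alone (29.4, at -533 bp).

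snRNA:U2:34ABb (FBgn0004192, 2L from 13215839 to 13216030, plus strand) was the 1 of 6 U2 genes with a thresholded summit. It lay at +11 bp with a signal value of 119.5 (rank 6614), near the lower end of the list. Replicate 1 had summits at -51 bp (77.7, rank 6169) and +156 bp (56.9, rank 9142). In replicate 2 the summit lay at +193 bp (51.5, rank 6699), with none at the start. The pooled list held a second summit at +216 bp (106.9, rank 7595), which is just under the lowest thresholded value of 110.1. The coding gene kek4 has TSSs at -489 to -687 bp, and the summit at the start was 500 bp from the nearest. Its neighbour snRNA:U2:34ABa had a weak pooled summit at -53 bp (28.0, rank 25661), found in replicate 1 alone (16.3, at -47 bp).

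In the minor spliceosome set, the 1 thresholded summit belonged by distance to a coding gene. It lay 975 bp downstream of the start of snRNA:U11 but 219 bp from a TSS of Fie, the gene that U11 lies in, and was the highest of the 9 summits (422.4, rank 941). It ranked 810 in replicate 2 (187.4), at +977 bp. In replicate 1 the overlapping peak had its summit at +807 bp, 51 bp from a Fie TSS, and ranked 4317 (99.8). The 7 other genes with a thresholded summit had it nearer to an snRNA start than to a coding TSS. At the edge of the 1 kb window, U11 (975 bp) and U5:38ABb (930 bp) were the members just inside, and U6:96Aa (1037 bp) and snRNA:U12 (1164 bp) those just outside.

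**Figure D3:**
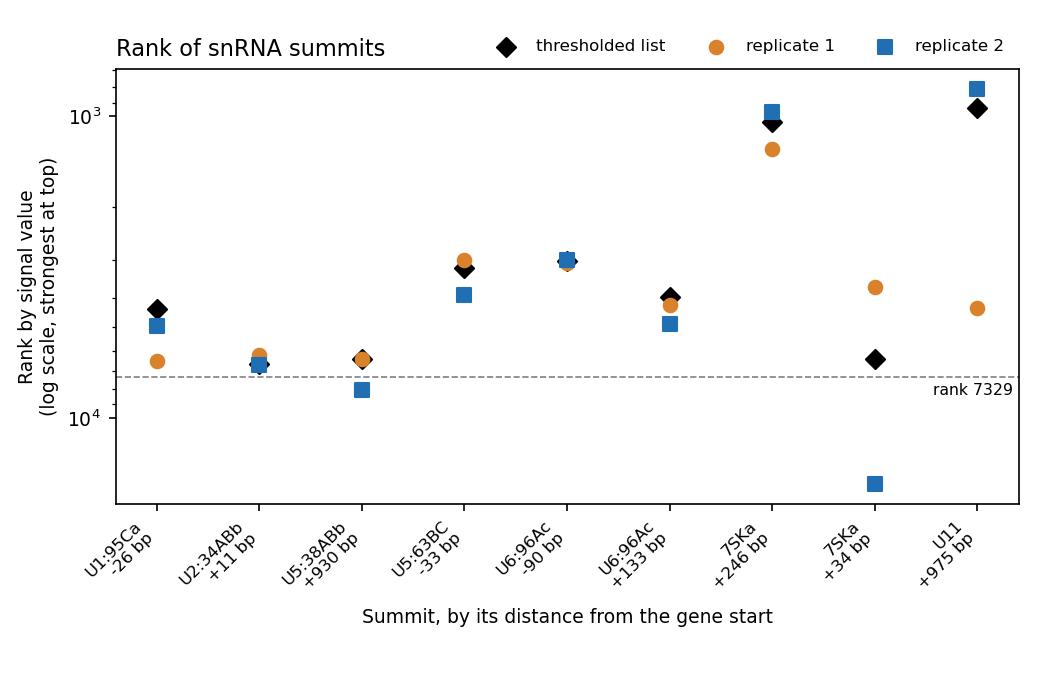
Rank by signal value (log scale, strongest at the top) of the 9 thresholded summits within 1 kb of an snRNA start, in the thresholded list and for the nearest summit of an overlapping peak in each replicate. The dashed line marks rank 7329. The lower 7SKa summit and the U5:38ABb summit fall below it in replicate 2 only.

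At 4 of the 5 genes with a summit at the start, the pooled list held a close pair. In it, U5:63BC, U2:34ABb, 7SKa and U6:96Ac each had a pair of summits, 199, 205, 212 and 223 bp apart, around or within a short gene. The smallest spacing between any summits was 199 bp in each of the 4 lists, and 32.9% of all pooled summits had a neighbour within 230 bp. The pairs were thus close to the smallest spacing in the lists. The 32.9% is over summits, and the like share of other genes with a summit at the start was not computed. Whether close pairs are particular to snRNA genes was therefore not tested. Of the 50-base words inside the gene, 0% occurred once in the assembly at U2:34ABb and U6:96Ac. The share was 44.6% at U5:63BC and 100% at 7SKa. The part of repeated sequence in the pairs was not tested. In signal the 9 summits were ordinary for the thresholded list, with a median percentile of 45.9 within it and a range from 9.76 to 87.2.

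Of the genes without a thresholded summit, snRNA:U5:35D came closest. It lies between Mtr4 and ND-B17, and its 2 pooled summits, at +544 bp (101.2, rank 8094) and -597 bp (60.7, rank 13834), were 60 bp and 16 bp from their TSSs. The first ranked 6557 in replicate 1 (74.4) and 12650 in replicate 2 (30.5). Mtr4 encodes a helicase of the nuclear RNA exosome and ND-B17 a subunit of mitochondrial complex I. snRNA:U4:38AB had a pooled summit at -869 bp in an intron of sick (79.6, rank 10575), with replicate values of 58.8 and 29.5. snRNA:U12 had pooled summits at -955 bp (53.1, rank 15587) and, inside the gene, at +102 bp (28.1, rank 25585). By family, 1 of 5 U1, 1 of 6 U2, 0 of 3 U4, 2 of 7 U5, 2 of 3 U6 and 1 of 2 7SK genes had one in the thresholded list. Of the 16 snRNA genes inside a protein-coding gene 2 had a thresholded summit, U11 and U5:38ABb, and of the 16 outside 6 had one. The U11 summit lay nearer to a TSS of Fie than to the U11 start, and the 2 U6 genes among the 6 had the same summits. The matching shares for other gene classes were not computed, so whether this split is particular to snRNA genes was not tested.

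Many snRNA genes hold sequence that occurs more than once, which can change how reads are placed, and no source states how such reads were treated when peaks were called. Of the 50-base words within 500 bp of the start, the share found once in the assembly had a median of 94.8% over the 32 snRNA genes (range 46.8 to 100), against 96.1% for tRNA genes and 100% for protein-coding genes. It ranged from 82.8 to 100% in the 8 genes with a thresholded summit (median 93.8) and from 46.8 to 100% in the 24 others (median 95). Inside the genes of U1:95Ca, U2:34ABb and the U6 family, 0% of the words were found once. The same 0% held for U1:21D, U1:95Cb, U2:34ABc and U2:38ABa, which had no thresholded summit within 1 kb. Within 100 bp of the summit, the share was 78.3% at U1:95Ca, 86.8% at U5:63BC, 45.4% at U2:34ABb, 100% at the upstream and 80.9% at the downstream U6:96Ac summit, and 100% at both 7SKa summits. Of the 24 genes without a thresholded summit, 7 had 100% around their start: U4:25F, 7SKb, U12, U4atac, U6atac, U7 and LU. The lowest shares, 46.8 to 51.9%, belonged to U2:38ABa, U2:34ABc and U2:38ABb, which had no summit in any list. The part of repeated sequence in the absence of peaks was not tested.

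**Figure D4:**
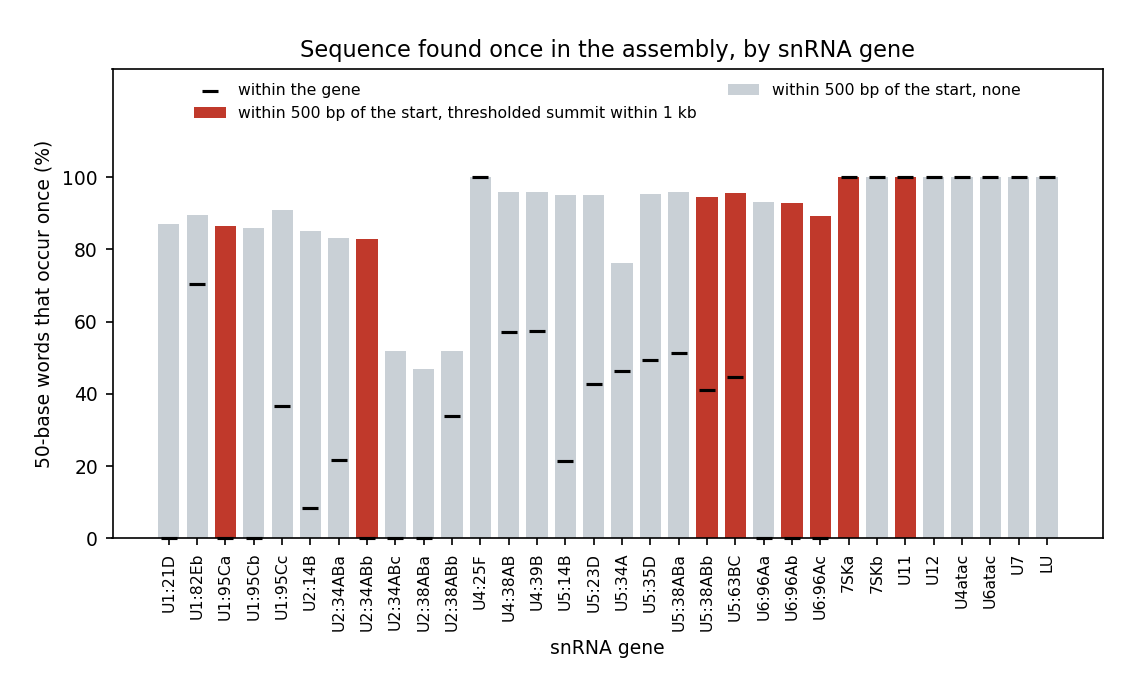
Share (%) of 50-base words found once in the assembly for each of the 32 snRNA genes, as bars for the region within 500 bp of the start and as black dashes for the gene itself. Red bars are the 8 genes with a thresholded summit within 1 kb, which range from 82.8 to 100%, and grey bars are the 24 others.

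E-boxes, the CANNTG sites that basic helix-loop-helix factors such as Fer1 bind, were found in many snRNA promoters and can overlap the element. The last CAA of the core is followed by TG after a further base at 16 of 31 elements, giving CAACTG at 13, CAAATG at 2 and CAAGTG at 1. Of those 16 genes 5 had a thresholded summit within 1 kb, and of the 16 other snRNA genes 3 had one. Not all of these summits lay at the element. Among the 5, the U11 summit lay 1033 bp from the centre of the core, and the U6:96Ab summits 490 and 713 bp. The latter are the summits at U6:96Ac, which is among the 3 others. Also among the 3, the U5:38ABb summit lay 987 bp from the core centre. A link between these E-boxes and the peaks was not tested. At the 5 starts with a summit, the element held an E-box in U1:95Ca, U2:34ABb and 7SKa but not in U5:63BC or U6:96Ac. Within 100 bp before the start, 62.5% of snRNA genes (20 of 32) held CANNTG on either strand, against 39.5% of all genes. Those 20 include the 16 genes with an E-box that starts in the element core, so the share is not independent of the element. Within 50 bp of the summit, 3 of the 9 snRNA summits had an E-box (33.3%), which is near the 37.8% of all thresholded summits. Those 3 belonged to U1:95Ca, the lower 7SKa summit and U11. At U1:95Ca the E-box was the one in the element, read on the other strand.

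Among other short motifs, the element core differed most from other promoters. In the promoter from 250 bp before to 50 bp after the start, on either strand, TATAAA matched 46.9% of snRNA genes and 43.9% of all genes, and GAGAG, a site of the GAGA factor, matched 28.1% and 29.5%. TATCGAT, the core of the DNA replication-related element, matched 1 of 32 snRNA genes (3.12%) and 15.1% of all genes. CANNTG matched 87.5% and 76.8%. TTCCCAA, the more common core, matched 81.2% of snRNA genes and 5.3% of all genes.

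Genes listed for the snRNA pathway had a thresholded summit within 1 kb of any TSS in 40 of 80 cases (50%, 95% Clopper-Pearson interval 38.6 to 61.4). The share over all protein-coding genes, counted in the same way, was 33.1%. No other set of protein-coding genes was set beside it, so whether the share is particular to the snRNA pathway was not tested. The interval covers counting error over genes only, and the lists were chosen with earlier results of these data known. Whether a summit lay nearer to a TSS of another gene was not checked for these genes. The median signal value of the 40 was 172.2, near the 182.1 of all thresholded peaks. Among factors of snRNA and polymerase III promoters 4 of 7 had a summit. They were Bdp1 (732.2) and Brf (589.1), subunits of the polymerase III factor TFIIIB, Tbp, the TATA-binding protein (147.2), and Pbp49, a SNAPc subunit (126.7). Integrator, which cleaves snRNA precursors, had 8 of 14, led by IntS6 (425.7), omd (302.8), IntS4 (271.6) and IntS11, the catalytic subunit (269.8). Proteins that work with 7SK and La had 4 of 6, namely bin3, which encodes the 7SK capping enzyme (845.3, rank 251), CycT (398.8), Hexim, the P-TEFb inhibitor (202.8), and La (139.3).

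Among the lists made for particle proteins, the share with a peak ranged from 4 of 12 to 7 of 13. The list of Sm and Lsm ring proteins had 5 of 12, with SmD3 (414.4), LSm1 (197.3), SmB (149.2) and LSm7 (131.3) highest. LSm1 is not a protein of the snRNA particles, and several Sm and Lsm symbols matched no single gene and were not counted. The list for the U1 and U2 particles had 7 of 13, among them U2af50 (518.9), snRNP-U1-C (324.7) and the SF3b subunits Sf3b6 (254.9) and Sf3b1 (172.9). U2af50 is a splicing factor that acts with the U2 particle and is not part of it. Proteins of the U4/U6.U5 particle and the catalytic complex had 4 of 12, hoip (281.9), Prp19 (171.5), Prp31 (159.8) and Prp3 (157.4). Genes listed for assembly, export and import of snRNPs had 8 of 16, with the importin gene msk at 378.2. It was followed by Smn, the survival motor neuron gene (146.5), the cap-binding gene Cbp20 (144.3) and the export adaptor gene Phax (140.4). For a gene among the 8 that is not named here, the place in this list is uncertain. The summits of these named genes lay upstream or within 200 bp downstream of a TSS, except omd at +467 bp and hoip at +834 bp.

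**Figure D5:**
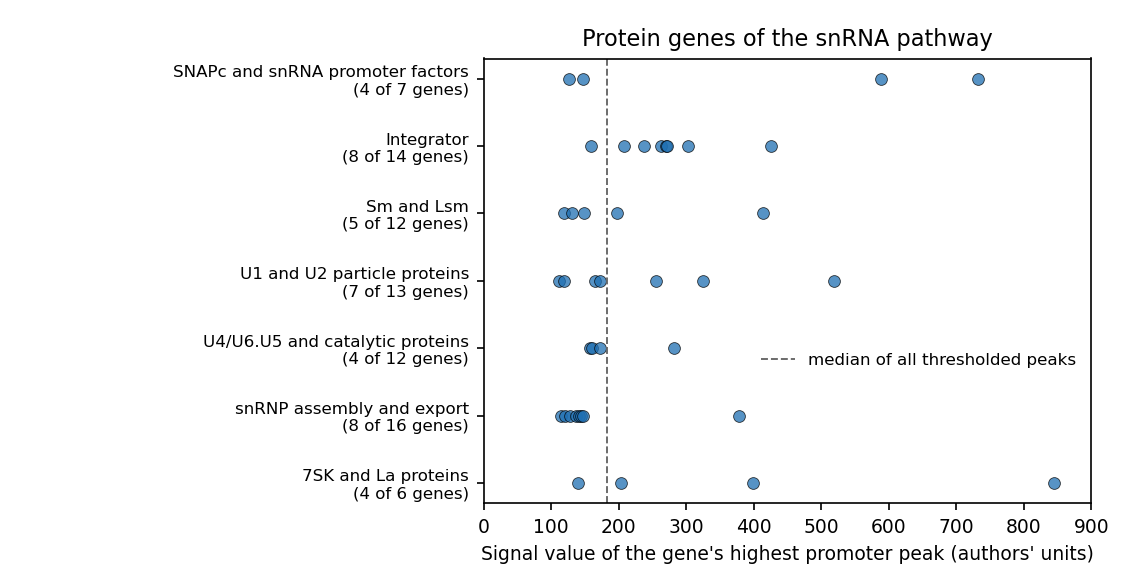
Signal value (authors' units) of the highest thresholded peak within 1 kb of a TSS, for each protein gene of the snRNA pathway that had one, by list. Each point is 1 gene, counts stand at the list names, and the dashed line is the median of all thresholded peaks, 182.1. The highest point, at 845.3, is bin3.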

How the data were processed

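ChIP-seq peak lists of 2 biological replicates on dm6 were used as deposited. The authors deposited, per the labels, a thresholded list, a pooled list and a list for each replicate. The notes deposited with the files derive the thresholded list from the other lists. They derive the pooled and replicate lists from the alignments and a further file, which the control-normalized tracks also draw on, and the labels name a possible control experiment. That control was not analysed here. The aligner, peak caller and threshold were not given in the sources used here. The peaks carry a deposited signal value, a deposited −log10 q value (unused, since it is capped) and a summit offset. Depth is unknown. All peaks lay within the chromosome lengths of the Release 6 assembly, and genes came from Ensembl release 115.

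The summit is the interval start plus the offset. Distances were measured to the 5′ end of each gene, for pathway genes to any coding TSS. Sequences came from the RefSeq copy of the assembly. Words of 50 bases were counted on both strands over the whole assembly. Of the 91 pathway symbols, 74 matched by name, 6 by synonym, 3 were duplicates, 2 matched several genes and 6 none. By rule any snRNA gene could be named, with full values for those with a thresholded summit and the 3 others with the highest pooled signal, up to 4 genes of each pathway list by signal, and coding genes with a TSS near a summit. The values of other snRNA genes, such as U2:34ABa, U6:96Aa, U1:95Cb and U4atac, were added after they were seen. The members, lists and motifs were chosen with earlier results of these data known. The motifs TTCNCAA and TATATA were added after the promoters had been read. The code was tested on simulated data. Python 3.11.15, numpy 2.4.6, pandas 2.3.3, scipy 1.17.1 and matplotlib 3.10.9 were used with seed 1. Alternatives were windows of 500 and 200 bp, the pooled list, the highest 3664 peaks, peak intervals over the start, summits not nearer to a coding TSS, shared summits counted once, and the 7329 highest peaks of each replicate in place of the thresholded list.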

Additional observations from a re-analysis of the deposited data

How the results depend on the processing

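The count of 8 snRNA genes was 6 with a window of 500 bp, and 7 without summits nearer to a coding TSS or with shared summits counted once. It was 5 with a window of 200 bp, 5 among the 3664 highest thresholded peaks, 5 with peak intervals over the start and 14 in the pooled list, as fewer or more peaks or positions qualify. From each replicate's own highest 7329 peaks ("without replicate 1" is the list of replicate 2) it ranged from 7 to 9. Without replicate 1 the gene U5:38ABb was lost, and without replicate 2 U5:35D was added. The count of 5 genes within 100 bp was 6 in the pooled list and 2 among the 3664 highest, and ranged from 2 without replicate 1 to 5 without replicate 2. These settings were chosen after seeing the data. The median distance of 62 bp rested on few genes. It was 267.5 bp in the pooled list, 246 bp among the 3664 highest, 193 bp without replicate 1 and 72 bp without replicate 2, so it varied by more than 1.5 times and the cause was not tested. The median percentile of 45.9 was 33.4 without replicate 1 and 42.1 without replicate 2. The count of 40 pathway genes was 19 among the 3664 highest and ranged from 38 to 41 over the replicates. It was 37 with a window of 500 bp and 40 from the gene start, where the share over protein-coding genes was 31.2%. For the other pathway settings the matching share was not computed, so these counts do not show a difference from other genes. The same holds for the snRNA counts among the 3664 highest and with peak intervals over the start. No paired analysis was possible because all samples form 1 group. With 32 genes, shares carry wide intervals, and unknown depth limits what the absence of a peak can show.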
